A study of Mus musculus with 9 samples.

Results

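The 4 TOX genes (Tox, Tox2, Tox3, Tox4) and the 3 NR4A genes (Nr4a1, Nr4a2, Nr4a3) were taken by symbol, 7 of 37022 genes in the deposited tables. The 7 symbols covered 30 annotated transcripts, each a row of the tables, and each gene was followed through the row whose gene-body signal was highest on average. The 9 libraries held nascent RNA of mouse CD8+ T cells, which kill infected and tumour cells. RNA made during 30 minutes of feeding with 0.2 mM 5-ethynyl uridine was captured and sequenced. The labels gave 3 groups of 3 libraries: acute stimulation (Acute), chronic stimulation (Chronic), and chronic stimulation with inhibition of the kinase MEK (ChronicMEKi). Strain, age, the manner and length of stimulation, and the inhibitor were not given in the labels. The question set by the submitters was how nascent transcription changes as T cells become exhausted, that is, lose function when stimulation persists, and how MEK bears on it.

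TOX proteins bind DNA through an HMG box, and TOX itself is needed for exhausted CD8+ T cells to form and persist. NR4A proteins are orphan nuclear receptors that act without a known hormone and are switched on within a short time of T cell receptor signalling. In T cells Tox, Tox2 and the NR4A genes are known targets of calcineurin and NFAT, and TOX and NR4A factors raise inhibitory receptors such as PD-1 in exhausted cells.

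Between chronic and acute libraries, Tox and Tox2 fell and Nr4a1 and Nr4a3 rose, while Tox3, Tox4 and Nr4a2 did not pass the test. Under MEK inhibition, Nr4a3 rose a further 2.03-fold and no other member passed. Against acute stimulation, the MEK-inhibited libraries had less Tox and Tox2 and more Nr4a1 and Nr4a3. The rises of Nr4a1 and Nr4a3 between chronic and acute libraries were lost under other library scalings. The other called differences kept their direction and their call under each scaling. Calls were also gained. Tox4 was called lower in chronic than in acute libraries on the deposited scale and with library totals. It was called lower in MEK-inhibited than in acute libraries under each other scaling. Tox was called higher in MEK-inhibited than in chronic libraries on the deposited scale and with library totals. Tox2 passed the signal filter of the test only with its acute libraries, where it was highest, and such a filter favours a fall. The chronic-minus-acute call of Tox2 was also lost without acute replicate 1, acute replicate 2 or chronic replicate 2.

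Promoter sequences are shown for the NR4A genes because 2 of these genes rose while the third did not pass, and because a short element recurs in all 3. RefSeq windows of 300 bases (250 before to 50 after the start, GRCm38.p6) matched 6 of the 7 genes; none matched Tox. The 250 bases before the start are printed 5′ to 3′ on the gene's own strand, with capitals for the letters TGACG or their reverse complement CGTCA, the half-site of the cyclic AMP response element. The windows printed are chr15:101266596-101266845 (+) for Nr4a1, chr2:57124004-57124253 (-) for Nr4a2 and chr4:48045055-48045304 (+) for Nr4a3.
Nr4a1: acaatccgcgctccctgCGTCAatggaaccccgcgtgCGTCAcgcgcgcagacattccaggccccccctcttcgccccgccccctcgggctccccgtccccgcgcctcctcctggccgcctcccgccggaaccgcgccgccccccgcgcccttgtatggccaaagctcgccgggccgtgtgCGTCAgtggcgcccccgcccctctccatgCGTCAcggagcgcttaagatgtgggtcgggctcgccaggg
Nr4a2: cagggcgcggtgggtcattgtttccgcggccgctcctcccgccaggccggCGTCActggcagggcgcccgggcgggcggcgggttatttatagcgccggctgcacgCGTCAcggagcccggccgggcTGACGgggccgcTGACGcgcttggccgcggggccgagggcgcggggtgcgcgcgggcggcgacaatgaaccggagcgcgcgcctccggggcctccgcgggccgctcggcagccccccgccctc
Nr4a3: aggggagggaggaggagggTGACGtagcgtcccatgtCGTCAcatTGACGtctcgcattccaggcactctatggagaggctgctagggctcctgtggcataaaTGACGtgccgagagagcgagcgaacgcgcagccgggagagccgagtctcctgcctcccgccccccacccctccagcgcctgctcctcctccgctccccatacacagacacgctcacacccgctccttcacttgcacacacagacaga

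Each NR4A window held 4 half-sites, all before the RefSeq start. They began at -233, -213, -69 and -40 in Nr4a1, at -200, -144, -123 and -111 in Nr4a2, and at -231, -213, -205 and -147 in Nr4a3, counted from that start. The Nr4a3 row used for the signal starts at 48045153, upstream of the RefSeq start at 48045305, so that its half-site at -147 lies after the start of that row. Of 27025 promoters (1 window per gene), 21% held at least 1 half-site on either strand and 68, or 0.252%, held 4 or more. Among the TOX genes, 1 half-site lay in the Tox4 window and 1 in 1 of 5 Tox2 windows. This motif was chosen after the sequences had been seen, and it was not tested. It lies inside the whole element TGACGTCA, which was in none of the member windows and in 1.88% of promoters. The NR4A element NBRE (AAAGGTCA, 1.46% of promoters), the AP-1 element (TGANTCA, 7.93%) and the CArG box of serum response factor (1.57%) were also in no member window. The ETS core TTCCGG (15.2% of promoters) was in Nr4a1 at -125 and in Tox2 at -138, the NFAT core GGAAAA (23.6%) was in Tox2, and the TATA box TATAAA (14.2%) was in Nr4a2 at -164 and in Tox2. All motifs were searched on both strands. GC made up 72.3%, 81.7% and 64.7% of the whole windows of Nr4a1, Nr4a2 and Nr4a3, against a mean of 53.6% over all promoters. These matches describe letters in a window and show no binding.

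Values below are scaled signal: the authors' signal per transcript, divided per library by a trimmed mean of ratios over genes, so that a typical gene is level between libraries. Depth in reads is not given with the signal and was not worked out. Gene-body signal summed to between 48600000 and 52220000 per library, and a ribosomal RNA-like locus took 19.1% to 22.3% of it in acute, 34.2% to 40.6% in chronic and 29.0% to 36.1% in MEK-inhibited libraries. Across genes, log2 signal correlated between libraries at 0.959 to 0.984 within groups (9 pairs) and 0.910 to 0.954 between groups (27 pairs). The MEK check held in the labelled direction: Dusp6, an ERK phosphatase induced by ERK, had 2395 ± 89.2 (SD, n = 3) in chronic and 204 ± 9.69 in MEK-inhibited libraries (limma log2 difference -3.52, SE 0.132, adjusted p = 5.23e-12). CD8 T cell markers (9 of 9 genes tested, none at 0, and 7 called lower in chronic than in acute libraries) summed to between 43172 and 50415 in acute, 28125 and 33521 in chronic, and 36555 and 39598 in MEK-inhibited libraries. Cd8a itself averaged 4061, 969 and 2881 in these groups. In bulk RNA, fewer cells of a type and less RNA per cell cannot be told apart. The CD4 list (2 of 4 genes in the tables, mostly Zbtb7b) summed to 1040 to 1367, 1054 to 1383 and 1729 to 2016 in the same order, while Cd4 itself averaged 442, 234 and 116. B cell markers (6 of 6) summed to 695 to 852, 389 to 454 and 247 to 676, and myeloid markers (7 of 7) to 290 to 355, 262 to 311 and 180 to 378. NK cell markers (3 of 3) summed to 8.52 to 27.5, 22.5 to 37.2 and 36.8 to 59.4, with Ncr1 at 0 in the MEK-inhibited libraries. The part of the ribosomal share and of these markers in the results was not tested.

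All 7 members entered the gene-body test, which asked for a deposited signal, before scaling, of 50 or more in 3 libraries. On that scale Tox2 reached 50 in 5 libraries, 3 of them acute, and Tox3 in 4, 2 of them acute, so both stood near the filter; the other members reached it in all 9. Tox2 passed only with its acute libraries, the group where it was highest, so its part in the counts below is no support for a fall. Between chronic and acute libraries 4 of the 7 were called (limma adjusted p under 0.05), 2 higher and 2 lower, beside 33.9% of 15942 genes tested (18% higher, 15.9% lower). MEK-inhibited against chronic libraries gave 1 call, higher, beside 17.6% of genes (9.93% higher, 7.65% lower). MEK-inhibited against acute libraries gave 4, of which 2 were higher and 2 lower, beside 25.8% (14.4% higher, 11.5% lower). The median member difference was 0.08, -0.14 and -0.21 on the log2 scale in these comparisons, and the median over all genes -0.02, 0.04 and 0.00. The comparisons share libraries, so their calls are not independent of each other.

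**Figure D1:**
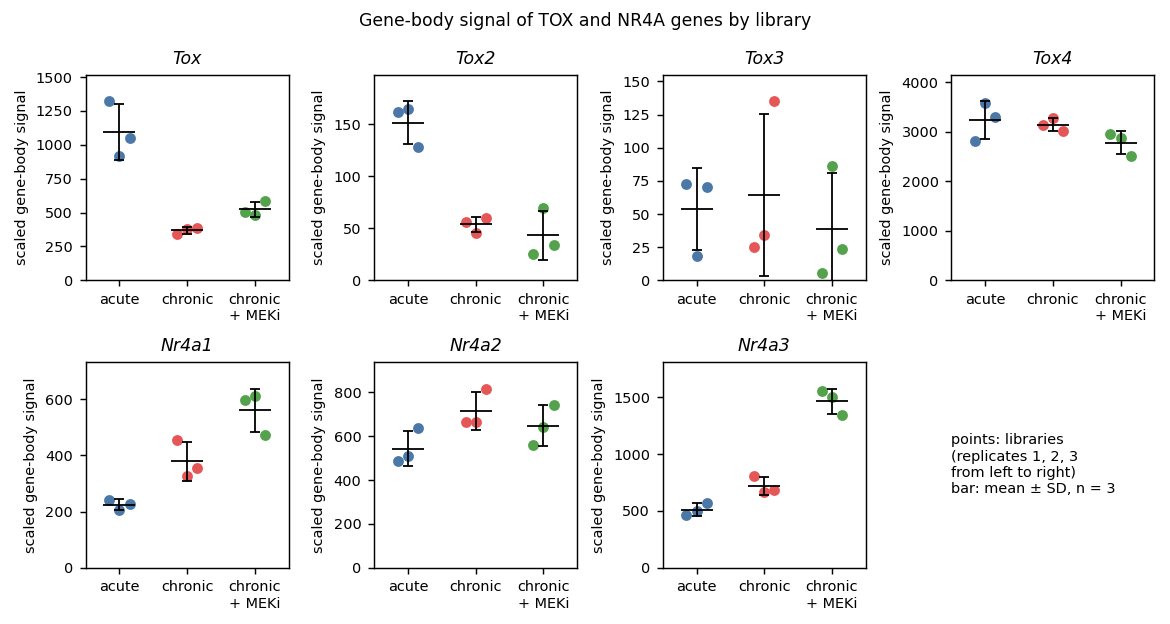
Scaled gene-body signal (y axis, linear from 0, separate for each gene) of the 7 genes in each library (points, replicates 1, 2 and 3 from left to right), with mean and SD as bars. Tox and Tox2 are highest in the acute libraries, Nr4a3 is highest in the MEK-inhibited libraries at 1343 to 1553, and Tox3 scatters from 5.61 to 135.

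Tox, the founding member of its family, lies on chr4:6686353-6990799 on the minus strand (GRCm38), a span of 304447 bases of which exons make up 1.30%. Scaled gene-body signal was 1320, 914 and 1051 in acute libraries, 339, 376 and 390 in chronic ones, and 502, 485 and 588 under MEK inhibition. The 3 groups did not overlap: every acute library was above every MEK-inhibited one, and those were above every chronic one. Tox fell 2.92-fold between chronic and acute libraries (log2 difference -1.54, SE 0.178, limma adjusted p = 1.91e-06). It was still lower under MEK inhibition than in acute libraries, by -1.04 (SE 0.178, adjusted p = 0.000231). Between MEK-inhibited and chronic libraries the difference of 0.50 (SE 0.178, 95% interval 0.13 to 0.88) did not pass, with an adjusted p of 0.0608. It passed on the deposited scale, at 0.63 (adjusted p = 0.0236), and when scaled to library totals, at 0.61 (adjusted p = 0.0335).

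The fall of Tox was called in each of its long rows. Its annotated transcripts include Tox-203, with a start slightly upstream, and Tox-204, which starts 316 bases downstream and covers 169790 bases. In a fit of all 70049 transcript rows tested, the 3 long Tox rows had log2 differences of -1.54, -1.46 and -1.30 between chronic and acute libraries, and all were called, beside 31.3% of rows. The same rows gave 0.50, 0.47 and 0.41 between MEK-inhibited and chronic libraries, where none was called (adjusted p 0.0573 to 0.205, beside 16.2% of rows). These rows overlap and are not independent. An antisense gene, Gm11802, overlaps 15992 bases of Tox and had a mean deposited signal of 39.5; whether the counting used strand is not stated, so its reads cannot be told apart from those of Tox.

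Tox2, a close relative of Tox with a like part in T cells, lies on chr2:163203125-163324170 on the plus strand. Its scaled gene-body signal was low: 161, 165 and 128 in acute, 56.4, 46.0 and 59.6 in chronic, and 25.6, 69.6 and 34.4 in MEK-inhibited libraries. The acute libraries stood above all 6 others, while chronic and MEK-inhibited libraries overlapped. Tox2 fell 2.65-fold between chronic and acute libraries (log2 difference -1.41, SE 0.437, limma adjusted p = 0.0182). Because the acute libraries carried Tox2 past the filter, the filter favours a gene that is lower elsewhere; with no filter, where genes needed only a signal above 0, the difference was -1.40 (limma adjusted p = 0.0336). The call was lost without acute replicate 1 (-1.36, adjusted p = 0.0662), acute replicate 2 (-1.33, adjusted p = 0.0555) or chronic replicate 2 (-1.30, adjusted p = 0.0563). Against acute libraries, the MEK-inhibited ones were lower by -1.79 (SE 0.437, adjusted p = 0.00492), to which the same filter applies, and by -1.85 with no filter (adjusted p = 0.00721). MEK-inhibited and chronic libraries differed by -0.39, with a wide 95% interval of -1.31 to 0.53 (adjusted p = 0.632). Starts 22.2 and 22.3 kb downstream of the row used gave -1.42 and -1.40 between chronic and acute libraries, both called in the all-row fit, beside 31.3% of rows. The shorter row Tox2-203 gave -0.70 (adjusted p = 0.379). These rows overlap and are not independent. They too passed the filter only with their acute libraries, so their calls are no further support for a fall.

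Tox3, better known from neurons and breast tissue, lies on chr8:90247040-90348343 on the minus strand and was barely detected. Its scaled signal was 72.4, 18.4 and 70.7 in acute, 24.8, 33.9 and 135 in chronic, and 5.61, 86.6 and 24 in MEK-inhibited libraries. All groups overlapped, and within MEK-inhibited libraries the SD was 110% of the mean. The chronic-minus-acute difference was 0.08, with a 95% interval of -1.60 to 1.76 (adjusted p = 0.951), and its sign turned under all 3 other scalings (-0.35 deposited, -0.36 library totals, -0.064 totals without the ribosomal rows). A change of Tox3 of either sign was not detectable at this spread.

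Tox4 is found in most cell types and belongs to a protein phosphatase 1 complex that acts on RNA polymerase II. It lies on chr14:52279146-52296401 on the plus strand, where 400 bases overlap Rab2b and 1561 bases overlap Mettl3, both on the opposite strand (mean deposited signal 658.3 and 1576.6). Tox4 had the highest gene-body signal of the 7: 2819, 3578 and 3297 in acute, 3142, 3278 and 3016 in chronic, and 2960, 2868 and 2513 in MEK-inhibited libraries. On this scale acute and chronic libraries overlapped, and every MEK-inhibited library was below every chronic one; on the deposited scale every chronic library was below every acute one, and MEK-inhibited and chronic libraries overlapped. None of its differences passed: -0.03 between chronic and acute (95% interval -0.26 to 0.19, adjusted p = 0.843), -0.18 between MEK-inhibited and chronic (-0.40 to 0.04, adjusted p = 0.292), and -0.21 between MEK-inhibited and acute (-0.44 to 0.01, adjusted p = 0.161). On the deposited scale Tox4 was called lower in chronic (-0.51, adjusted p = 0.00496) and in MEK-inhibited than in acute libraries (-0.56, adjusted p = 0.00348). Library totals gave -0.52 (adjusted p = 0.00391) and -0.60 (adjusted p = 0.00187) for the same comparisons, and totals without the ribosomal rows called the second, at -0.38 (adjusted p = 0.0123). Without acute replicate 1, the lowest acute library, MEK-inhibited minus acute was also called, at -0.37 (adjusted p = 0.0240).

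Nr4a1, also called Nur77 and much used as a readout of T cell receptor signalling, lies on chr15:101254269-101274795 on the plus strand in the row used. Its scaled gene-body signal was 242, 205 and 228 in acute, 457, 325 and 355 in chronic, and 599, 612 and 473 in MEK-inhibited libraries. On this scale the 3 groups did not overlap. Nr4a1 rose 2.45-fold between MEK-inhibited and acute libraries (log2 difference 1.30, SE 0.213, limma adjusted p = 0.000162), and on the deposited scale these groups also did not overlap. The rise of 0.73 between chronic and acute libraries (SE 0.213, adjusted p = 0.0126) depended on scaling: it was 0.26 on the deposited scale (adjusted p = 0.380), 0.25 with library totals (adjusted p = 0.414) and 0.57 with totals without the ribosomal rows (adjusted p = 0.0528). It was also lost without chronic replicate 1 (0.59, adjusted p = 0.0602). MEK-inhibited minus chronic was 0.57 (95% interval 0.12 to 1.01) and missed the threshold at an adjusted p of 0.0797; without chronic replicate 1 it was 0.70 and passed (adjusted p = 0.0450).

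Nr4a2, or Nurr1, best known from dopamine neurons, lies on chr2:57106830-57124003 on the minus strand. Its scaled gene-body signal was 487, 508 and 636 in acute, 663, 666 and 817 in chronic, and 558, 642 and 744 in MEK-inhibited libraries. The chronic libraries stood above the acute ones on this scale, and the MEK-inhibited libraries overlapped both. No difference passed: 0.40 between chronic and acute (95% interval 0.02 to 0.77, limma adjusted p = 0.0944), -0.14 between MEK-inhibited and chronic (adjusted p = 0.664) and 0.25 between MEK-inhibited and acute (adjusted p = 0.334). The sign of the first turned to -0.074 on the deposited scale and -0.090 with library totals, and that of the last to -0.088 and -0.13.

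Nr4a3, or NOR1, lies on chr4:48045153-48086445 on the plus strand. Scaled gene-body signal was 466, 497 and 571 in acute, 812, 665 and 688 in chronic, and 1553, 1503 and 1343 in MEK-inhibited libraries. The lowest MEK-inhibited library was above the highest of the other groups, on the scaled and on the deposited scale. Nr4a3 rose 2.03-fold under MEK inhibition (log2 difference 1.02, SE 0.150, limma adjusted p = 7.14e-05), and stood 2.85-fold above acute libraries (1.51, SE 0.150, adjusted p = 5.18e-07). Both calls held in each alternative run. The rise of 0.49 between chronic and acute libraries (SE 0.150, adjusted p = 0.0164) was weaker: deposited means were 619 ± 82.9 (SD, n = 3) for acute, 632 ± 114 in chronic and 1405 ± 216 in MEK-inhibited libraries. On that scale the chronic-minus-acute difference was 0.02 (adjusted p = 0.928), with library totals 0.0055 (adjusted p = 0.983), and with totals without the ribosomal rows 0.33 (adjusted p = 0.114). The call was also lost without a filter (0.50, adjusted p = 0.0759), without acute replicate 1 (0.42, adjusted p = 0.0708) and without chronic replicate 1 (0.41, adjusted p = 0.0662).

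**Figure D2:**
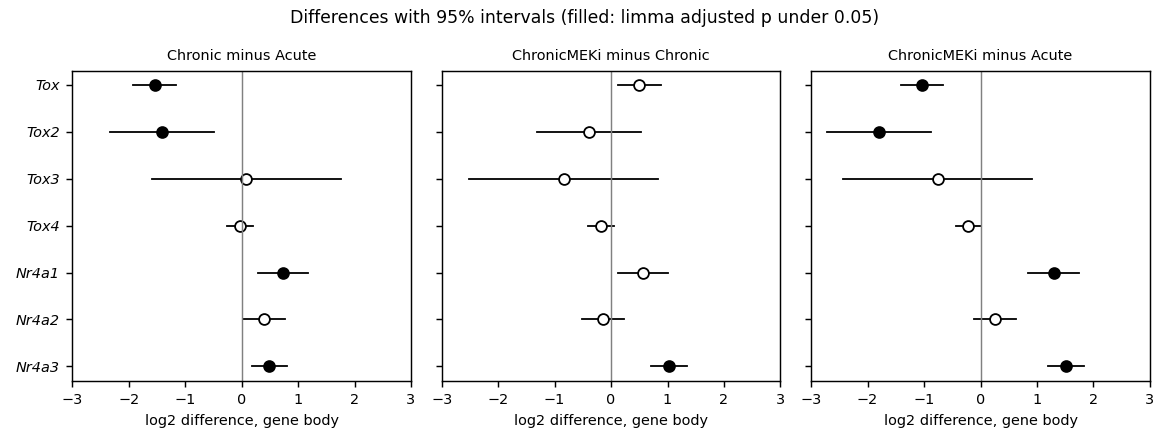
Log2 differences of scaled gene-body signal (x axis) with 95% intervals for the 7 genes (rows) in the 3 comparisons (panels); filled points have a limma adjusted p under 0.05. Tox and Tox2 are filled below 0 and Nr4a1 and Nr4a3 above 0 in both comparisons with acute libraries, and Nr4a3 alone is filled in the comparison of MEK-inhibited with chronic libraries.

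How a library was scaled moved all members together. The divisors of the trimmed mean were 1.17 to 1.25 in acute, 0.820 to 0.940 in chronic and 0.866 to 1.02 in MEK-inhibited libraries. Relative to it, library totals moved the median gene by -0.49 between chronic and acute, 0.11 between MEK-inhibited and chronic and -0.38 between MEK-inhibited and acute libraries; the deposited scale moved it by -0.47, 0.13 and -0.34. Over all genes, calls between chronic and acute libraries were 2875 higher and 2528 lower with the trimmed mean, 1096 and 6846 with library totals, 1134 and 6713 on the deposited scale and 2096 and 3759 with totals without the ribosomal rows. Between MEK-inhibited and chronic libraries the same settings gave 1583 and 1219, 1769 and 741, and 1979 and 721 for the first 3. Between MEK-inhibited and acute libraries they gave 2291 and 1827, 955 and 4965, 1023 and 4542, and 1572 and 3151. The ribosomal RNA-like share, which is part of those totals, was higher in chronic libraries. Ratios of members within a library were taken on the deposited signal with 5 added to each value, so the divisors do not enter them.

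**Figure D3:**
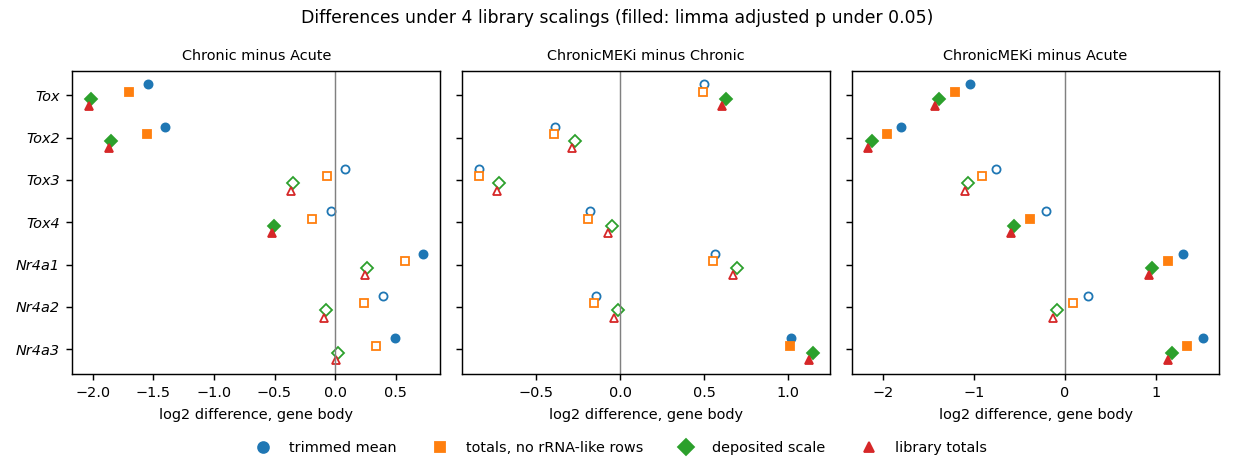
Log2 difference of gene-body signal (x axis) for each gene (rows) in the 3 comparisons (panels) under 4 library scalings (symbols); filled symbols have a limma adjusted p under 0.05. Tox stays below 0 and filled in both comparisons with acute libraries, whereas Nr4a3 in the chronic-minus-acute panel runs from 0.49 to 0.0055 and is filled with the trimmed mean only.

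The log2 ratio of Nr4a3 to Nr4a2 within each library was -0.06, -0.03 and -0.15 in acute, 0.29, -0.0026 and -0.25 in chronic, and 1.47, 1.22 and 0.85 in MEK-inhibited libraries. The MEK-inhibited libraries stood above all 6 others, by 1.16 against chronic ones (two-sided exact permutation p = 0.1, the smallest that 3 against 3 libraries allow, and 0.2 adjusted over 18 ratio tests). The ratio of Nr4a3 to Nr4a1 was 0.93 ± 0.10 (SD, n = 3) in chronic and 1.38 ± 0.10 in MEK-inhibited libraries, again without overlap and with the same exact p of 0.1. Chronic and acute libraries overlapped in each of the 3 ratios between NR4A genes. For Tox against Tox4, the log2 ratio was -1.57 ± 0.44 (SD, n = 3) for acute, -3.08 ± 0.13 in chronic and -2.39 ± 0.27 in MEK-inhibited libraries. No pair of groups overlapped in that ratio, each with an exact permutation p of 0.1. The ratios were chosen after the values had been seen.

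Levels between genes were compared per kilobase of the annotated span, since longer genes collect more signal. The order and the shares below depend on the row used for each gene. In acute libraries Nr4a1 averaged 225 over 20527 bases in the row used, and 126 over 7950 bases in the shorter row Nr4a1-201. In acute libraries the order was Tox4 at 187 ± 22.2 (SD, n = 3), Nr4a2 at 31.6 ± 4.70, Nr4a3 at 12.4 ± 1.31, Nr4a1 at 10.9 ± 0.922, Tox at 3.6 ± 0.679, Tox2 at 1.25 ± 0.170 and Tox3 at 0.531 ± 0.303. Nr4a3 and Nr4a1 overlapped there, and the other neighbours did not. In chronic libraries Nr4a1 (18.5 ± 3.35) and Nr4a3 (17.5 ± 1.91) overlapped, as did Tox (1.21 ± 0.0861) with Tox3 (0.637 ± 0.603) and Tox3 with Tox2 (0.446 ± 0.0588). In MEK-inhibited libraries Nr4a2 (37.7 ± 5.40) and Nr4a3 (35.5 ± 2.66) overlapped, Nr4a1 had 27.3 ± 3.74, and Tox had 1.72 ± 0.183. Of the signal per kilobase of the 3 NR4A genes, Nr4a2 held 57.4% ± 2.33 (SD, n = 3) for acute, 53.7% ± 5.29 in chronic and 37.5% ± 5.68 in MEK-inhibited libraries. Nr4a3 held 22.5% ± 0.710, 22.5% ± 2.0 and 35.3% ± 2.5 in the same order, and the MEK-inhibited libraries were above all others. Tox4 held 97.1% to 98.7% of the TOX family by group mean, and Tox 1.91% ± 0.584, 0.657% ± 0.0582 and 1.07% ± 0.208.

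The pause region, near the transcription start, held enough signal to test in 2 members. Nr4a2 had 108, 54.6 and 55.3 in acute, 41.8, 123 and 135 in chronic, and 86.8, 90.7 and 90.0 in MEK-inhibited libraries. Tox4 had 18.5, 36.8 and 83.0, then 58.6, 29.2 and 41.3, then 69.3, 46.1 and 42.1. Groups overlapped in both genes. Neither was called in any comparison by limma (0 of 2; differences of 0.35, -0.0009 and 0.35 for Nr4a2 and 0.07, 0.28 and 0.35 for Tox4; none had an unadjusted p under 0.05), beside 10.7%, 3% and 5.95% of 7678 genes. Of those genes 5.37%, 1.56% and 3.44% were higher, and 5.35%, 1.43% and 2.51% lower. The change of the pause region relative to the gene body was also called in 0 of these 2 by limma, with no unadjusted p under 0.05, beside 0% of 7413 genes in each comparison (749, 394 and 591 genes at an unadjusted p under 0.05; 24, 2 and 0 genes called with no filter). In Tox, Tox2 and Tox3 the pause region held at most 10.1, 7.91 and 0.756 in any library. Nr4a3 had 30.0, 30.3 and 4.94 in acute, 22.0, 36.2 and 13.1 in chronic, and 74.7, 21.9 and 48.8 in MEK-inhibited libraries, too low for the filter.

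Tox4 showed more pause-region signal at annotated starts downstream of the row used. At a start 419 bases downstream it was 237, 304 and 550 in acute, 366, 560 and 284 in chronic, and 313, 328 and 329 in MEK-inhibited libraries. At 586 bases downstream it was 253 to 579, 305 to 613 and 328 to 349 in the same order. These 2 regions lie close together and may share reads. At a start 6.59 kb downstream, well inside the gene, it was 185 to 330, 226 to 252 and 185 to 227. Region limits are unknown, and whether signal at starts inside the gene differs from gene-body signal was not tested. None of the 4 Tox4 rows was called in the pause region in any comparison of the all-row fit, beside 10.4%, 2.53% and 5.35% of 37468 rows.

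Nr4a1 has an annotated start at 101254269, used above, and another 12.6 kb downstream at 101266846, which is the RefSeq start of the promoter shown. The pause region at the upstream start held 1.77, 0.594 and 7.91 in acute, 15.7, 36.2 and 72.4 in chronic, and 29.6, 28.7 and 68.9 in MEK-inhibited libraries. Every acute library was below all the others. At the downstream start it held 30.9, 13.7 and 17.8, then 36.6, 22.2 and 18.1, then 7.4, 6.04 and 0.957, so that every MEK-inhibited library was below all the others. Upstream, chronic and MEK-inhibited libraries each differed from acute ones with a two-sided exact permutation p of 0.1, the smallest the design allows (0.164 adjusted over 18 tests of starts). Downstream, MEK-inhibited libraries differed from chronic and from acute ones with the same exact p of 0.1. The log2 ratio of upstream to downstream signal was -1.68 ± 0.795 (SD, n = 3) for acute, 0.43 ± 1.37 in chronic and 2.26 ± 1.14 in MEK-inhibited libraries, where only the first and last groups did not overlap. All these values are close to the filter or below it, and these starts were picked after their values had been seen. The 5 added to each signal before a ratio is taken weighs heavily on values this low.

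In the gene body of Nr4a1, signal not counted in the gene body of the inner row made up 44.2% ± 8.85 (SD, n = 3) for acute, 49.3% ± 6.92 in chronic and 49.1% ± 10.6 in MEK-inhibited libraries. Region limits are unknown, so this share may hold signal just after the second start as well as signal upstream of it. The inner row, Nr4a1-201, rose by 1.14 between MEK-inhibited and acute libraries in the all-row fit (limma adjusted p = 0.00640). Its difference of 0.59 between chronic and acute libraries did not pass (adjusted p = 0.134).

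Nr4a2 held nearly all of its gene-body signal outside the gene body of an inner row that starts at 57115038, 8.97 kb into the gene. Signal just after that start may again be part of this share. The inner row had 40.3, 59.7 and 40.8 in acute, 109, 68.9 and 106 in chronic, and 39.3, 45.0 and 39.6 in MEK-inhibited libraries, and the chronic libraries stood above all others. In the all-row fit it differed by 0.93 between chronic and acute (limma adjusted p = 0.121) and by -1.08 between MEK-inhibited and chronic libraries (adjusted p = 0.113), and neither passed. The share outside it was 91.2% ± 2.70 (SD, n = 3), 86.7% ± 3.09 and 93.5% ± 0.978. All 4 Nr4a3 rows were called between MEK-inhibited and acute libraries, at 1.51, 1.43, 2.02 and 1.97, beside 23.4% of rows. Between MEK-inhibited and chronic libraries the long rows Nr4a3-201 (1.02) and Nr4a3-203 (1.04) were called, beside 16.2% of rows, and the short rows Nr4a3-202 (0.97, limma adjusted p = 0.0866) and Nr4a3-204 (0.92, adjusted p = 0.0580) were not. Between chronic and acute libraries Nr4a3-201 (0.49) and both short rows were called, the latter at 1.05 each (adjusted p = 0.0352 and 0.0171), beside 31.3% of rows, while Nr4a3-203 was not (0.39, adjusted p = 0.0741).

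**Figure D4:**
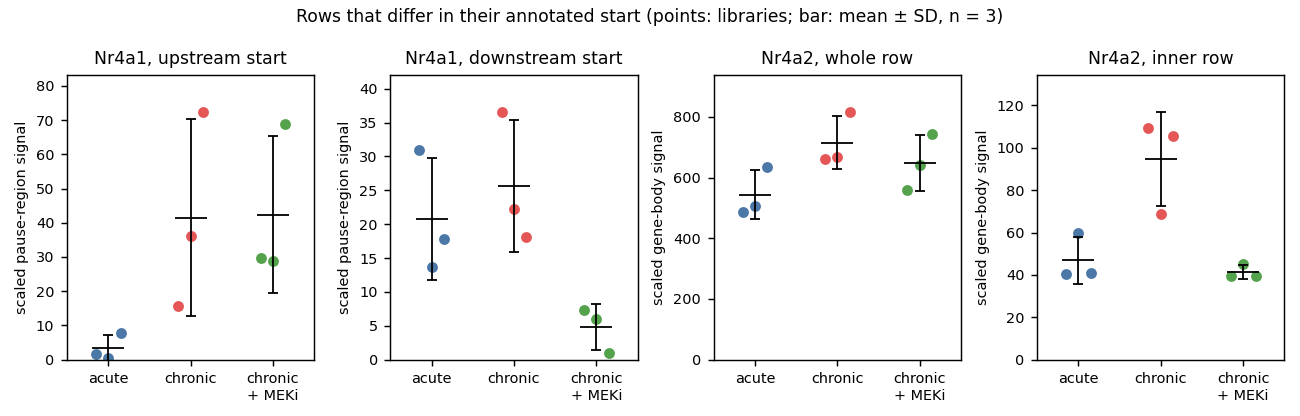
Scaled pause-region signal (y axis) at the upstream and the downstream start of Nr4a1, and scaled gene-body signal of the whole and the inner row of Nr4a2, per library (points) with mean and SD (bars, n = 3); axes start at 0 and differ between panels. Upstream Nr4a1 signal is lowest in the acute libraries, downstream signal is lowest in the MEK-inhibited libraries, and the inner Nr4a2 row is highest in the chronic libraries.

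Genes of the pathways around TOX and NR4A were counted from lists. Over all 15942 genes tested, 18%, 9.93% and 14.4% were called higher in the 3 comparisons and 15.9%, 7.65% and 11.5% lower. The median over all genes was -0.02, 0.04 and 0.00 with the trimmed mean and -0.48, 0.16 and -0.33 on the deposited scale. It was -0.50, 0.14 and -0.37 with library totals, and -0.17, 0.03 and -0.16 without the ribosomal rows. On the deposited scale 1134 genes were called higher and 6713 lower between chronic and acute libraries. Of 18 calcineurin-NFAT genes, 2 were called higher and 11 lower in chronic than in acute libraries, with a median of -0.33 (-0.80 on the deposited scale and -0.82 with library totals, each with 1 higher and 12 lower). Itpr2, a calcium channel of the endoplasmic reticulum, fell by 1.58 (log2), and Ppp3cb, a catalytic subunit of calcineurin, fell by 1.19, while Orai1, the plasma membrane calcium channel, rose by 0.84 and Itpr1 by 0.72. Under MEK inhibition 7 rose and 2 fell (median 0.14), among them Itpr2 at 0.80, Nfatc1 at 0.79, Orai2 at -0.62 and Orai1 at -1.01. Nfatc1, the NFAT factor that is itself induced by NFAT, had 10336 ± 1237 (SD, n = 3) for acute, 5691 ± 680 in chronic and 9819 ± 498 in MEK-inhibited libraries. MEK-inhibited libraries against acute ones had 2 higher and 7 lower (median -0.23; -0.57 on the deposited scale, with 1 and 13, and -0.61 with library totals, with 1 and 14), with Itpr1 at 0.81, Stim1 at 0.54, Ppp3ca at -0.81 and Itpr2 at -0.78.

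NR4A genes are themselves immediate early genes, and 18 of 20 listed immediate early genes entered the test. From acute to chronic libraries 9 rose and 2 fell (median 0.56; 0.08 on the deposited scale, where 7 rose and 5 fell). Egr2, a zinc-finger factor that restrains T cells, rose by 3.52 and Ier3 by 3.31, whereas Fos fell by 3.28 and Egr1 by 0.83. Under MEK inhibition 0 rose and 9 fell by limma (median -0.44), the largest falls being Egr2 at -3.42 and Egr1 at -2.90. Nr4a3 moved the other way in the same comparison, at 1.02. Against acute libraries, MEK-inhibited ones had 6 higher and 4 lower (median 0.12, but -0.22 on the deposited scale, -0.26 with library totals and -0.05 with totals without the ribosomal rows). Ier3 stood at 1.52, Atf3 at 1.33, Egr1 at -3.73 and Fos at -3.66.

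Among genes of exhaustion linked to TOX or NR4A, 19 of 21 listed symbols were tested. Of these 11 rose and 6 fell between chronic and acute libraries (median 0.73; 0.27 on the deposited scale, where 9 rose and 8 fell), led by Havcr2, which encodes TIM-3, at 4.73 and Ifng at 3.69, with Tcf7 at -2.03 and Ctla4 at -1.91. Pdcd1, which encodes PD-1, had 352 ± 20.1 (SD, n = 3) for acute, 2120 ± 277 in chronic and 2426 ± 71.6 in MEK-inhibited libraries. Under MEK inhibition 4 rose and 10 fell (median -0.42), with Ctla4 at 2.02, Tcf7 at 1.56, Havcr2 at -3.35 and Prdm1 at -1.81. Against acute libraries 11 were higher and 4 lower (median 0.70), with Pdcd1 at 2.77, Ifng at 2.46, Bach2 at -1.53 and Cd244a at -0.72.

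Relatives by protein domain moved in both directions. Of 17 other HMG-box genes tested (18 listed), 3 rose and 3 fell between chronic and acute libraries (median 0.18, but -0.28 on the deposited scale, where 1 rose and 6 fell, and -0.30 with library totals), with Sox5 at 1.76, Hmgb2 at 0.58, Tcf7 at -2.03 and Hbp1 at -1.04. Under MEK inhibition 3 rose and 2 fell (median 0.08), with Tcf7 at 1.56, Hmgb2 at 0.56, Sox5 at -1.18 and Lef1 at -0.68. Against acute libraries 6 were higher and 3 lower (median 0.28, but -0.058 on the deposited scale, with 2 higher and 4 lower, and -0.10 with library totals), with Hmgb2 at 1.14, Hmg20b at 0.88, Lef1 at -1.15 and Hbp1 at -0.59. Of 20 other nuclear receptors tested (22 listed), 2 rose and 5 fell between chronic and acute libraries (median -0.18; 1 and 12 on the deposited scale): Pparg, a receptor of fatty acid ligands, at 1.63 and the glucocorticoid receptor Nr3c1 at 0.54 were higher, and Rarg, a retinoic acid receptor, at -2.61 and Thra at -0.74 were the largest falls. Under MEK inhibition 2 rose and 3 fell (median 0.06), with Rarg at 1.86, Ppard at 0.51, Pparg at -1.59 and Rxra at -0.67. Against acute libraries 1 was higher, Nr3c1 at 0.69, and 4 were lower, led by Rxra at -0.93 and Rarg at -0.74 (median -0.10). In the 5 genes of the Tox4 phosphatase complex list, Wdr82 (-0.80) and Ppp1cc (-0.30) fell between chronic and acute libraries and none rose (median -0.20; -0.68 on the deposited scale and -0.69 with library totals, each with 4 lower). Ppp1cc rose by 0.32 under MEK inhibition (median 0.13), and Wdr82 was lower than in acute libraries by -0.58 (median 0.02, but -0.32 on the deposited scale, -0.36 with library totals and -0.15 with totals without the ribosomal rows).

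**Figure D5:**
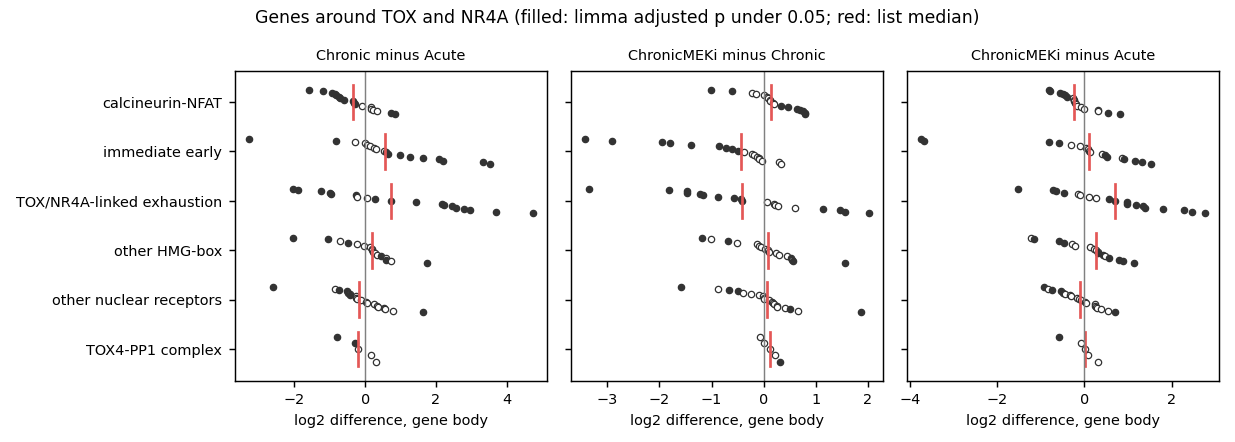
Log2 difference of scaled gene-body signal (x axis) of each tested gene (points) in 6 gene lists (rows) for the 3 comparisons (panels); filled points have a limma adjusted p under 0.05 and the red line is the list median. Immediate early genes have a median of 0.56 between chronic and acute libraries and of -0.44 under MEK inhibition, and calcineurin-NFAT genes a median of -0.33 and 0.14.

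The genes most like each member were the 2 with the smallest root mean square distance between centred log2 profiles over the 9 libraries, among 10458 protein-coding genes. For Tox these were Tmem59 (distance 0.13) and Slc9a9 (0.14), against a spread of 0.66 of Tox itself around its mean. Tmem59 averaged 2677 in acute, 905 in chronic and 1228 in MEK-inhibited libraries, the order seen for Tox. Nr4a3 was nearest to Polk (0.11) and Ccnf (0.14), and Polk averaged 1881, 2535 and 4649 in the same order. Nr4a1 was nearest to Spag5 (0.08) and Bub1b (0.13), Nr4a2 to Cct7 (0.10), and Tox4 to Fam192a (0.06) and Rcc1l (0.07). Tox2 was nearest to Zfp831 (0.24) and Nebl (0.27). Tox3 had the most distant nearest genes, Dysf (0.35) and Zmat4 (0.51). These distances are descriptions over 9 libraries that share their scaling.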

How the data were processed

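Nascent RNA libraries were aligned to mouse build mm10 with STAR 2.7.0a after FastQC 0.12.0 and Trim Galore 0.6.10, per the submitters' processing notes, which also name SAMtools 1.19.2 and R 4.1.2. The authors deposited signal per transcript in 2 tables, read here as gene body and pause region from their names. The deposited signal was treated as a scaled signal and not as read counts, because low values in each library are multiples of a library-specific step. Region limits, the counting program and its use of strand are not given in the sources used here.

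The tables held 118482 rows. Of these, 117346 matched GENCODE M21 (GRCm38) identifiers with version and 383 without, and 753 were left out; 0 columns were unmapped. One gene kept 1 row, that of highest average gene-body signal. Genes with a deposited signal of 50 or more in 3 or more libraries were kept, and libraries were scaled to each other by trimming 30% of log ratios and 5% of levels from each end and averaging the rest without weights. Log2(signal + 5) was fitted for all genes with limma 3.58.1 (R 4.3.3; intensity trend, robust moderation, 1 mean per group, 9 libraries). A fold change on that scale understates the change of weak genes. Adjusted p-values are limma's, by Benjamini and Hochberg over all genes of a comparison, with a threshold of 0.05. Simulated data were used to test the fit. Python 3.11.15 with pandas 2.3.3 did the matching. Nothing says whether libraries came from separate animals or cultures, so p-values measure the spread between these samples, which may be technical. No pairing of libraries by the labels' replicate numbers was seen over all 3 groups, which does not exclude a shared source. Same-numbered acute and chronic libraries did deviate together weakly (r = 0.075 to 0.098).

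The 7 genes and the lists were chosen with earlier results of these data known. The fit over all transcript rows, the ratios, the starts compared and the half-site motif were added after the data were seen. Genes were named as all members, up to 2 rises and 2 falls per list and comparison among called genes, and the 2 genes most like each member (protein coding, mean scaled signal of at least 100); 1 gene that this rule named is not reported here. Alternative rows had a mean gene-body signal of at least 50. Promoter sequences are RefSeq's, on GRCm38.p6. Alternatives covered the pseudocount, filter, scaling, row, replicate block, libraries in the fit, moderation and each library left out.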

Additional observations from a re-analysis of the deposited data

How the results depend on the processing

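Of 1070 recomputed values, 1003 kept their direction and their side of the threshold (counts within 1.5 times), 39 reversed, 13 fell short of the threshold, 9 passed it and 6 counts moved. Part of these values had little room to change, since ratios carry no call and pausing was called in 0 of 7413 genes. Causes were not tested. Members called between chronic and acute libraries numbered 4. They numbered 2 with totals without the ribosomal rows and 2 to 4 when a library was left out (2 without acute replicate 1 or chronic replicate 1). With library totals and on the deposited scale this count stayed within 1.5 times, but its members changed. There Nr4a1 and Nr4a3 lost their calls as higher, and Tox4 gained a call as lower. Between MEK-inhibited and chronic libraries 1 member was called, against 2 with library totals, 2 on the deposited scale and 1 to 2 when a library was left out. Reversed values, with no call on either side, were for chronic minus acute: Tox3 gene body -0.36 (library totals), -0.35 (deposited) and -0.064 (without ribosomal rows); Nr4a2 gene body -0.090 and -0.074 (library totals, deposited); Tox4 pause region -0.46 and -0.0011; Nr4a2 pause region -0.23 (library totals); Nr4a2 pausing 0.34 (deposited) and 0.21 (without ribosomal rows). For MEK-inhibited minus acute they were Nr4a2 gene body -0.13 and -0.088. For MEK-inhibited minus chronic, the Nr4a2 pause region gave 0.25 (library totals), 0.20 (deposited), 0.010 (pseudocount 0.5), 0.0086 (no filter), 0.013 (without ribosomal rows) and 0.021 (only the 2 groups). Leaving out 1 library at a time gave chronic minus acute ranges of -0.60 to 0.52 for Tox3 and -0.13 to 0.053 for Tox4 in the gene body, -0.39 to 0.56 for the Tox4 pause region, -0.26 to 0.58 and -0.32 to 0.41 for Tox4 and Nr4a2 pausing, and -0.042 to 0.23 for the Nr4a3 to Nr4a2 ratio. The ranges for MEK-inhibited minus chronic were -0.51 to 0.29 for the Nr4a2 pause region and -0.31 to 0.42 for its pausing, and for MEK-inhibited minus acute -0.11 to 0.84 for the Tox4 pause region and -0.12 to 0.53 for Nr4a2 pausing. Over all genes, calls between MEK-inhibited and chronic libraries numbered 2802, or 1637 with no filter, and between MEK-inhibited and acute ones 4118, or 2642. Calls between chronic and acute libraries split 2875 higher to 2528 lower, or 1096 to 6846 with library totals. With a filter of 200 no member was left in the pause region, and 5 in the gene body. Fitting only the MEK-inhibited and chronic groups left 5.

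Same-numbered libraries deviated together at r = -0.53 to 0.098 over 9 pairs, and 0 exceeded 0.1. A library matched its own number best in 8 of 18 cases. Libraries of unlike number deviated at r from -0.37 (acute 3 with MEK-inhibited 1) to 0.51 (acute 2 with MEK-inhibited 1). Between acute and chronic libraries the same-numbered pairs had r of 0.092, 0.098 and 0.075, and pairs of unlike number -0.077 to -0.012. With MEK-inhibited libraries the highest r were of unlike number, acute 2 with 1 at 0.51 and acute 1 with 2 at 0.40. A pairing by number was thus not seen over all 3 groups. With 3 libraries per group, these values can neither show nor exclude a shared animal or culture. With the replicate block, members called stayed at 4, 1 and 4 in the gene body and 0 in the pause region and pausing, and calls over all genes went from 5403, 2802 and 4118 to 5497, 2956 and 4263.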
